A study of Mus musculus with 12 samples.

Results

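The genes described here are 33 genes of lipid and sterol synthesis, measured in gastrocnemius and soleus of mice with and without a Cre designed to delete Phf2 in muscle fibres. They were the rows of the deposited tables whose Ensembl gene ID, without its version, matched the symbol of a named gene in GENCODE mouse release M21, and all 33 were found among 34866 gene IDs. By role they comprised 5 regulators, 3 enzymes of fatty acid synthesis, 7 elongases and desaturases, 7 enzymes from acetyl-CoA to farnesyl diphosphate, and 11 enzymes of squalene and sterol formation. Values are TPM, the transcripts of a gene per 1000000 transcripts of the library, a level corrected for transcript length, so levels of different genes can be set side by side.

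Cells make fatty acids and cholesterol from cytosolic acetyl-CoA. The transcription factors encoded by Srebf1 and Srebf2 are held in the endoplasmic reticulum with SCAP by the INSIG proteins when sterols are plentiful, and when sterols fall they are carried to the Golgi, cleaved and sent to the nucleus, where SREBP1 mainly drives fatty acid genes and SREBP2 mainly sterol genes. In skeletal muscle both pathways run at low levels compared with liver or fat, and the mevalonate pathway also supplies ubiquinone and the prenyl groups of small GTPases.

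The study examined PHF2, a histone demethylase of the plant homeodomain finger family, in skeletal muscle. All mice were male, 4 weeks old, on a C57BL/6 background and carried Phf2 flox/flox. Control mice (Ctrl) were Acta1 Cre- and knockout mice (KO) were Acta1 Cre+, so Cre was driven by the promoter of skeletal muscle actin and other cells of the muscle keep Phf2. Gastrocnemius and soleus gave 3 libraries per genotype, 12 in all, 1 table per muscle. The labels do not say that the 3 libraries of a group came from separate mice, or that muscles of the same number came from the same mouse, so the p-values cover the variation among these libraries, which may be technical. TPM keeps no depth, so the depth of each library is unknown.

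Phf2 was lower in every KO library than in every Ctrl library of the same muscle. In gastrocnemius it was 9.996, 11.4 and 8.24 TPM in Ctrl and 6.74, 7.61 and 7.003 TPM in KO, 72.1% of the Ctrl mean. In soleus it was 14.0, 10.002 and 15.0 TPM in Ctrl and 8.11, 9.06 and 6.79 TPM in KO, 61.4% of the Ctrl mean. Neither difference passed the limma test across all genes (adjusted p = 0.0601 and 0.326), and the two-sided exact permutation p was 0.1 in each muscle, the smallest that 3 against 3 libraries can give.

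The libraries carried the fibre genes of their labelled muscle. Myh4, the myosin of fast fibres, was 9590 to 12236 TPM in gastrocnemius and 32.0 to 272 TPM in soleus, and Myh7, the myosin of slow fibres, was 40.8 to 140 TPM in gastrocnemius and 1795 to 5717 TPM in soleus. KO replicate 3 of soleus stood apart, with the lowest Myh7 of the soleus libraries and 39.0% of its TPM in mitochondrially encoded genes, against 24.5 to 29.6% in the other soleus libraries. In gastrocnemius the Ctrl and KO libraries also differed in genes that are not members. Processed pseudogenes above 0 TPM numbered 1018 to 1160 in the Ctrl libraries and 1539 to 1781 in the KO libraries. The slope of a library's log2 level, relative to the gene's mean in that muscle, against GC content ran from -1.16 to -0.48 in the Ctrl and from 0.50 to 1.01 in the KO libraries (log2 units per unit of GC fraction). That slope was -2.56 in KO replicate 3 of soleus and 0.20 to 0.92 in the other soleus libraries. Pseudogene counts of soleus did not divide by genotype, at 1726, 1068 and 1577 for Ctrl and 1320, 1782 and 1436 for KO. Gm12338, also not a member, was 0 TPM in all gastrocnemius Ctrl and 99.4 to 194 TPM in gastrocnemius KO. Among soleus libraries, Ctrl replicates 1 and 3 and KO replicate 2 held 187, 74.5 and 174 TPM, and the others 0. This library difference coincided with genotype in gastrocnemius, and the part it had in the calls there was not tested.

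Over the 12 libraries the mean level of the members ran from 0.73 TPM for Elovl6, the elongase of C16 fatty acids, to 38.0 TPM for Insig2. The next highest were Fdft1, squalene synthase, at 30.2 TPM and Fdps, farnesyl diphosphate synthase, at 21.1 TPM. At the low end after Elovl6 stood Lss, lanosterol synthase, and Hsd17b7, a 3-ketosteroid reductase of the sterol branch, both at 1.31 TPM, then Sqle, squalene epoxidase, at 1.69 TPM and Cyp51, lanosterol 14-demethylase, at 1.94 TPM. In the sterol branch the step into squalene, Fdft1, thus stood highest, and the next steps, Sqle, Lss and Cyp51, were among the lowest. Elovl6 was under the mean of 1 TPM that the tests required, at 0.50 to 0.99 TPM, and the other 32 members were tested in each of the 5 comparisons.

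Most members varied little between libraries. In 21 of 33 the highest library was under 2 times the lowest, and in 3 it was at least 3 times the lowest. These 3 were Mvd, diphosphomevalonate decarboxylase, whose highest library was 9.52 times its lowest, Scd1, stearoyl-CoA desaturase, at 6.58 times, and Fasn, fatty acid synthase, at 3.75 times. The summed level of the 33 members was 278 to 293 TPM in gastrocnemius Ctrl, 290 to 372 TPM in gastrocnemius KO, 322 to 397 TPM in soleus Ctrl and 287 to 376 TPM in soleus KO. Those ranges overlapped between KO and Ctrl in both muscles.

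**Figure D1:**
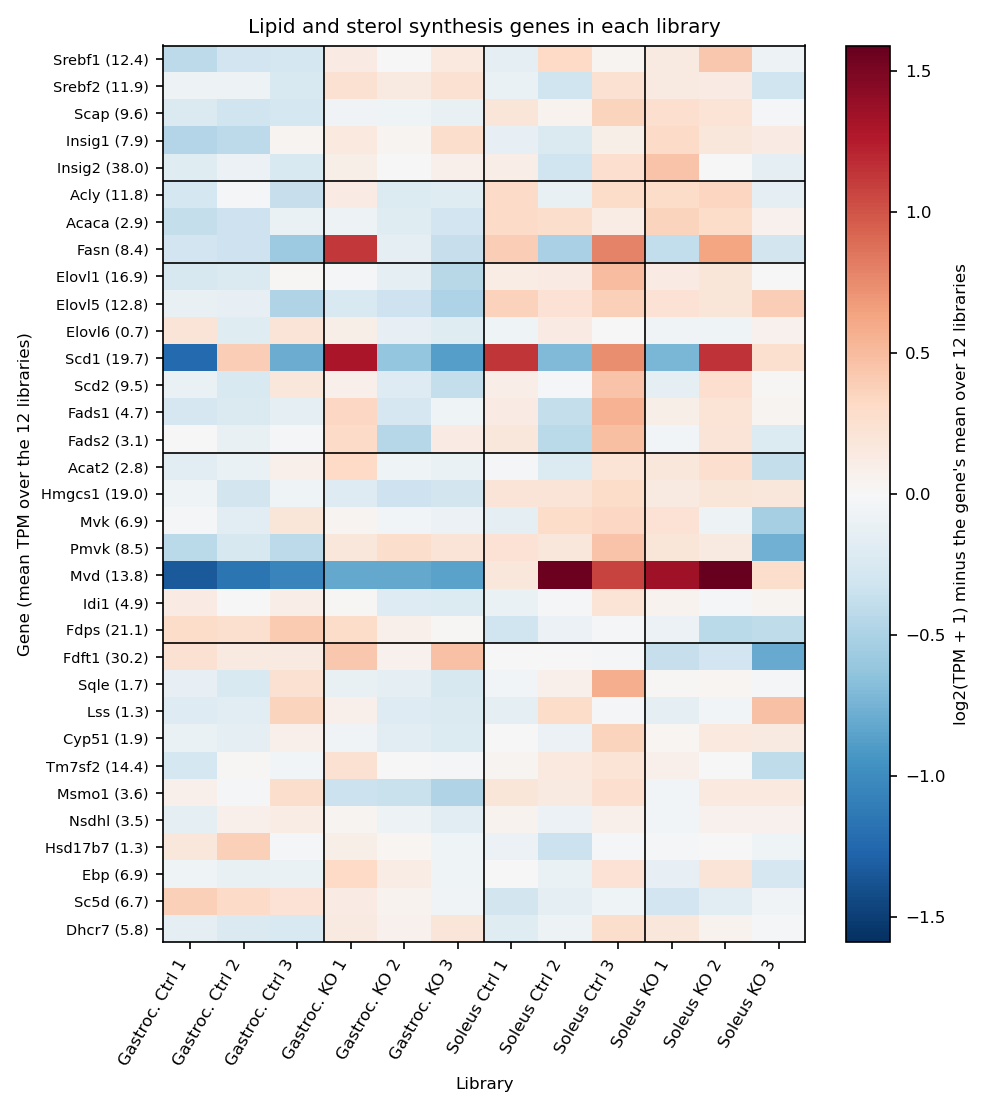
Level of each member (rows, ordered by role, with its mean TPM over the 12 libraries in brackets) in each library (columns), as log2(TPM + 1) minus the gene's own mean over the 12 libraries, on a log2 colour scale from blue (below the mean) to red (above it). Mvd is blue in all 6 gastrocnemius libraries and red in all 6 soleus libraries, and Scd1 and Fasn are red in some libraries and blue in others of the same group.

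Promoter sequence was at hand for 27 members, as RefSeq windows on GRCm38.p6 from 250 bases before to 50 bases after a start, and their choice did not use that sequence. The 6 members without a window were Fdps, Fdft1, Sqle, Scd1, Scd2 and Fads1, and the shares below do not cover them. The windows were searched on both strands for TCACNCCAC, a spelling of the sterol regulatory element, and for CCAAT, bound by NF-Y, GGGCGG, bound by Sp1, and CACGTG, an E-box. CCAAT was in 22 of 27 members (81.5%) against 41.1% of all 27025 genes with such a window. GGGCGG was also in 22 of 27 (81.5%) against 38.2% of all genes, and CACGTG was in 6 (22.2%) against 8.09%. Among protein-coding genes alone the shares were 42.1% for CCAAT, 51.0% for GGGCGG and 9.18% for CACGTG. By role, CCAAT was in 4 of 5 regulators, 2 of 3 fatty acid synthesis enzymes, 2 of 4 elongases and desaturases, 5 of 6 mevalonate enzymes and 9 of 9 sterol-branch enzymes. GGGCGG was in 5 of 5, 1 of 3, 2 of 4, 5 of 6 and 9 of 9 of the same roles. TCACNCCAC was in 1 member (3.70%) against 1.44% of all genes. That member was Hmgcs1, the cytosolic HMG-CoA synthase, where it stood 137 to 129 bases before the start. A gene with several windows was counted if any of them held the motif, and in 1 of the 36 member windows a pair of the motifs shared a base. A match here is a description of letters and not a bound site.

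The 250 bases before the start are shown for 4 members on which the comparisons turn. Hmgcs1 carries the sterol element, Pmvk was the member with the smallest p in the gastrocnemius KO comparison, Msmo1 was the only member called lower there, and Mvd differed most between the muscles. Capitals mark CCAAT, which reads ATTGG on the other strand, and TCACNCCAC, and each sequence runs 5′ to 3′ on the gene's strand. Pmvk has a further window inside the gene that holds none of the 4 motifs. The starts are those of RefSeq, and most of the Msmo1 stretch lies inside the gene's GENCODE span, which is given below.
Hmgcs1, chr13:119690101-119690350, plus strand: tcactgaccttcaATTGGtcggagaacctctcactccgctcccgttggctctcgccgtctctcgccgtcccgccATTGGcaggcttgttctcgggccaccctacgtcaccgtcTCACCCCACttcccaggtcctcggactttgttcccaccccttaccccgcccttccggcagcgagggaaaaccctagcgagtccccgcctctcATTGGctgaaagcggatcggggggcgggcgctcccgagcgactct
Pmvk, chr3:89454291-89454540, plus strand: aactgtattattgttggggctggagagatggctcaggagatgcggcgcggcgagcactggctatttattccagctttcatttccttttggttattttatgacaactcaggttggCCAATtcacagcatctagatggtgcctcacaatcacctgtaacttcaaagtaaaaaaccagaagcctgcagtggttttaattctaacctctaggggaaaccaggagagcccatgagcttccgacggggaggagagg
Mvd, chr8:122443423-122443672, minus strand: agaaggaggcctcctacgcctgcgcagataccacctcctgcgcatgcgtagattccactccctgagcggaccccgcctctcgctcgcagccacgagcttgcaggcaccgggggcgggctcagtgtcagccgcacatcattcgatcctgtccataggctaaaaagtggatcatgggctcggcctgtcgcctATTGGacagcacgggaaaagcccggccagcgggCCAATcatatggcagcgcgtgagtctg
Msmo1, chr8:64733579-64733828, minus strand: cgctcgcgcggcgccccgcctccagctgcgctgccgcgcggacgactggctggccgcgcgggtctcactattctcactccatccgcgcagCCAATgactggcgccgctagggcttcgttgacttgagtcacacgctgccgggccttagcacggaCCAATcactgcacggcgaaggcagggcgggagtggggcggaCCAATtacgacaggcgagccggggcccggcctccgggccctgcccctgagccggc

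In gastrocnemius, 5 of 32 members rose in KO and 1 fell. Those that rose were the transcription factor genes Srebf1 and Srebf2, the mevalonate enzymes Pmvk and Mvd, and Dhcr7, which makes the last reduction to cholesterol. The member that fell was Msmo1, a C4-methyl sterol oxidase of the same sterol branch. Over all 11911 genes tested, 9.32% were called higher and 4.99% lower. The median log2 fold change was 0.10 over the 32 members and 0.03 over all genes tested. The call was an adjusted p under 0.05 in limma on log2(TPM + 1), and fold changes on that scale understate those of genes at low TPM.

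Among the regulators every gene was higher in each KO library than in each Ctrl library, and 2 of 5 passed the test. In limma all 5 had an unadjusted p under 0.05, as did 3841 of the 11911 genes tested. How many of all genes separated the genotypes in this way was not counted, so the separation cannot be read as particular to the regulators. Srebf1 (chr11:60199089-60222581, mm10) was 8.88, 9.68 and 9.86 TPM in Ctrl and 13.4, 12.3 and 13.7 TPM in KO, a log2 fold change of 0.43 (SE 0.079, adjusted p = 0.0164). Srebf2 (chr15:82147181-82205379) was 11.1, 11.1 and 9.86 TPM in Ctrl and 14.1, 13.1 and 14.1 TPM in KO, a log2 fold change of 0.34 (SE 0.078, adjusted p = 0.0308). For both genes the Ctrl and KO values lay close together within a genotype and apart between them.

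The other regulators had smaller or noisier differences. Insig2, an anchor of the SCAP complex and the most abundant member, was 32.8, 35.3 and 31.6 TPM in Ctrl and 40.3, 37.5 and 40.0 TPM in KO (log2 fold change 0.23, adjusted p = 0.0656). Scap, the escort of the SREBP precursors, was 7.88, 7.41 and 7.64 TPM in Ctrl and 9.03, 8.94 and 8.64 TPM in KO (0.19, adjusted p = 0.110). Insig1, the sterol-induced anchor, was 5.36, 5.54 and 8.05 TPM in Ctrl and 8.76, 8.05 and 9.66 TPM in KO (0.44, adjusted p = 0.0906). For Insig1 the value of Ctrl replicate 3 lay just under the lowest KO value. The 5 regulators together summed to 66.0 to 69.0 TPM in Ctrl and 79.9 to 86.1 TPM in KO, without overlap.

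None of the 9 tested genes of fatty acid synthesis, elongation and desaturation passed the test in gastrocnemius. Acly, ATP citrate lyase, which makes cytosolic acetyl-CoA, was 9.41, 11.3 and 8.80 TPM in Ctrl and 12.8, 9.87 and 10.02 TPM in KO (adjusted p = 0.523). Acaca, acetyl-CoA carboxylase, was 1.92, 2.03 and 2.53 TPM in Ctrl and 2.60, 2.32 and 2.08 TPM in KO (adjusted p = 0.673). The genotypes overlapped for both genes.

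Fasn had the largest fold change of the members in gastrocnemius and the spread to match. It was 6.02, 5.92 and 4.79 TPM in Ctrl and 17.9, 6.80 and 5.70 TPM in KO, a log2 fold change of 0.61 (SE 0.36, adjusted p = 0.296). Scd1 was 6.25, 21.5 and 8.94 TPM in Ctrl and 41.1, 10.2 and 8.32 TPM in KO (0.48, SE 0.63, adjusted p = 0.641). In both genes KO replicate 1 stood highest, and the other KO libraries lay at or near the Ctrl values. For Scd1, Ctrl replicate 2 at 21.5 TPM also stood above the remaining libraries.

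The elongases Elovl1 and Elovl5, which act on very long and on polyunsaturated chains, also overlapped between genotypes. Elovl1 was 13.8, 14.1 and 16.9 TPM in Ctrl and 16.5, 15.1 and 12.0 TPM in KO (log2 fold change -0.04, adjusted p = 0.849). Elovl5 was 11.4, 11.3 and 8.69 TPM in Ctrl and 10.4, 9.77 and 8.58 TPM in KO (-0.11, adjusted p = 0.585). The desaturases Scd2, Fads1 and Fads2 had log2 fold changes of -0.11, 0.22 and 0.04, and none of them separated the genotypes.

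Of the 7 mevalonate pathway enzymes up to farnesyl diphosphate, 2 rose in gastrocnemius, where 9.32% of all genes tested were called higher. Pmvk, phosphomevalonate kinase (chr3:89454541-89469013), was 5.85, 6.70 and 5.93 TPM in Ctrl and 9.45, 10.2 and 9.59 TPM in KO, a 1.58-fold difference in mean TPM (log2 fold change 0.59, SE 0.081, adjusted p = 0.00852). Mvd, the enzyme that follows it (chr8:122433601-122443422), was 3.42, 3.98 and 4.36 TPM in Ctrl and 5.35, 5.32 and 5.19 TPM in KO (0.36, SE 0.095, adjusted p = 0.0484). The KO values of both genes lay in a narrow range above every Ctrl value.

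The enzymes on either side of these steps did not pass. Hmgcs1 was 17.9, 15.2 and 17.9 TPM in Ctrl and 16.2, 14.8 and 15.2 TPM in KO (log2 fold change -0.13, adjusted p = 0.336). Fdps was 25.6, 24.8 and 28.02 TPM in Ctrl and 25.7, 21.96 and 21.05 TPM in KO (-0.19, adjusted p = 0.219). Both had overlapping genotypes, and so did Acat2, a cytosolic acetoacetyl-CoA thiolase, Mvk, mevalonate kinase, and Idi1, isopentenyl diphosphate isomerase, with log2 fold changes of 0.11, -0.03 and -0.21.

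Of the 11 enzymes of squalene and sterol formation, 1 rose, 1 fell and 9 did not pass in gastrocnemius. Over all genes tested 9.32% were called higher and 4.99% lower. Msmo1 (chr8:64718139-64733792) was 3.78, 3.42 and 4.50 TPM in Ctrl and 2.57, 2.54 and 2.24 TPM in KO, 0.629 times the Ctrl mean (log2 fold change -0.50, SE 0.11, adjusted p = 0.0274). Dhcr7 (chr7:143823145-143848410) was 5.09, 4.77 and 4.71 TPM in Ctrl and 6.48, 6.07 and 6.73 TPM in KO (0.34, SE 0.079, adjusted p = 0.0322). The genotypes did not overlap for either gene, in opposite directions.

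Sc5d, the lathosterol oxidase whose product Dhcr7 reduces, was 8.88, 8.39 and 7.94 TPM in Ctrl and 7.36, 6.90 and 6.35 TPM in KO (log2 fold change -0.26, adjusted p = 0.0841). All its KO values lay below all Ctrl values. Fdft1 was 34.8, 32.6 and 32.5 TPM in Ctrl and 40.1, 30.8 and 41.0 TPM in KO (0.15, adjusted p = 0.405), with KO replicate 2 under the Ctrl range. The other sterol enzymes, Sqle, Lss, Cyp51, Tm7sf2, Nsdhl, Hsd17b7 and Ebp, had log2 fold changes from -0.16 to 0.22 and overlapping genotypes.

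**Figure D2:**
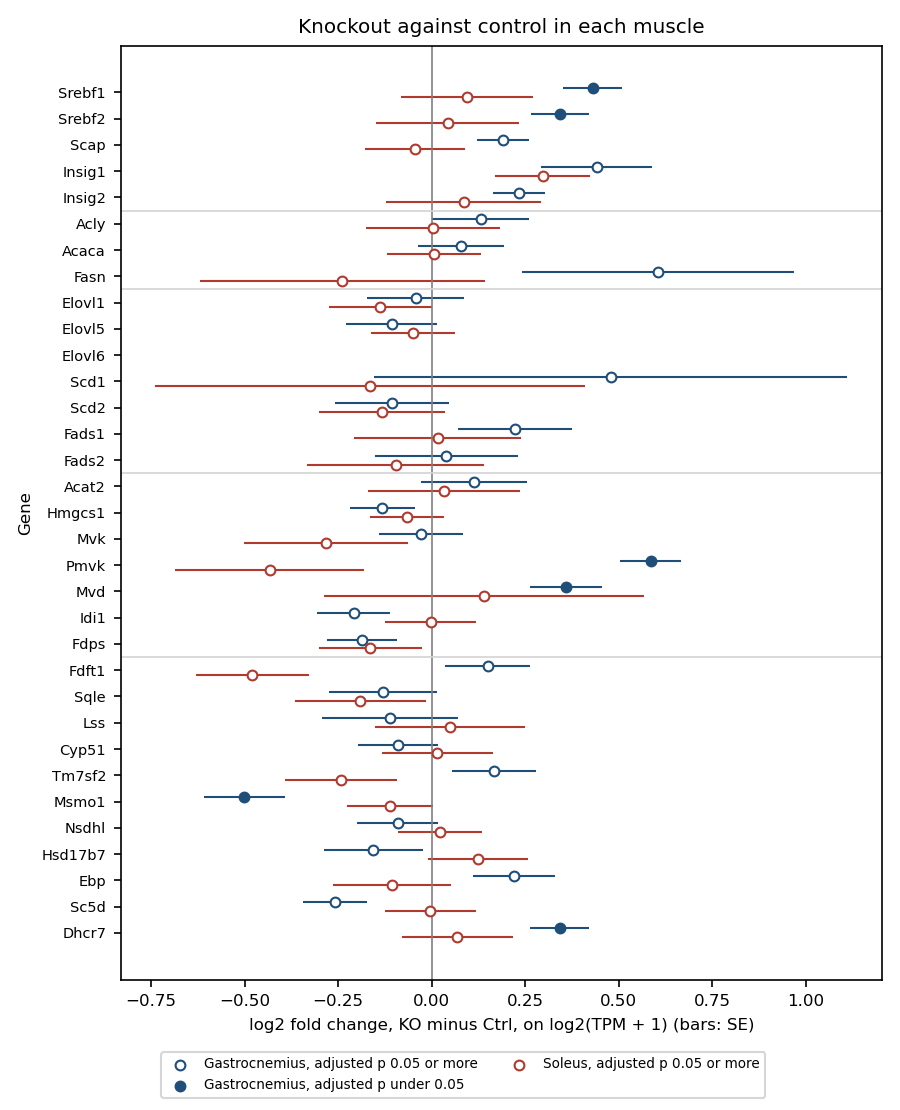
Log2 fold change of KO against Ctrl on log2(TPM + 1) for each member tested (rows, by role), in gastrocnemius (blue) and soleus (red), with bars of 1 SE and filled points for an adjusted p under 0.05 in limma. In gastrocnemius 6 points are filled, Srebf1, Srebf2, Pmvk, Mvd and Dhcr7 to the right and Msmo1 to the left, and in soleus none is.

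The gastrocnemius calls moved with the GC content of the transcript. The 5 members that rose had longest transcripts of 52.8 to 59.0% GC and Msmo1 had 44.7%. Over the 32 members tested, Spearman's rho between GC content and log2 fold change was 0.66, and over 11879 genes it was 0.37, with all values from the same 6 libraries, so these are descriptions across genes that are not independent. After each library was corrected for GC content and length, 1270 of 11911 genes were called in place of 1704. Among the 32 members, 2 were called in place of 6. These were Pmvk, with a log2 fold change of 0.39 (adjusted p = 0.0334), and Insig2, at 0.25 (adjusted p = 0.0470). Srebf1 was then at 0.27 (adjusted p = 0.0587), Srebf2 at 0.20 (0.102), Mvd at 0.17 (0.251), Dhcr7 at 0.23 (0.101) and Msmo1 at -0.46 (0.0513), each in its former direction.

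The calls in gastrocnemius, of members and of all genes, were also fewer when a library was left out. The number of members called was 1 without Ctrl replicate 1, 3 without Ctrl replicate 2 and 5 without Ctrl replicate 3. It was 2 without KO replicate 1, 2 without KO replicate 2 and 1 without KO replicate 3. Over all genes the 1704 calls became 563, 781, 1596, 1099, 547 and 821 in the same fits, in that order. With all 12 libraries in the fit, which pools the spread of both muscles, Msmo1 (adjusted p = 0.0244) was the 1 member called, and none that rose was, Pmvk included (adjusted p = 0.125). Pmvk was called in all 6 fits that left out a library, Srebf1 in 4, Msmo1 in 2, Mvd in 1, and Srebf2 and Dhcr7 in none, while every fold change kept its sign. With scaling by median ratios the calls over all genes were 872 higher and 872 lower in place of 1110 and 594, and the members called were 4 higher and 2 lower, Sc5d being called lower and Mvd not called. After rescaling without mitochondrially encoded genes the calls over all genes were 753 higher and 802 lower, and those of members 2 and 1.

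**Figure D3:**
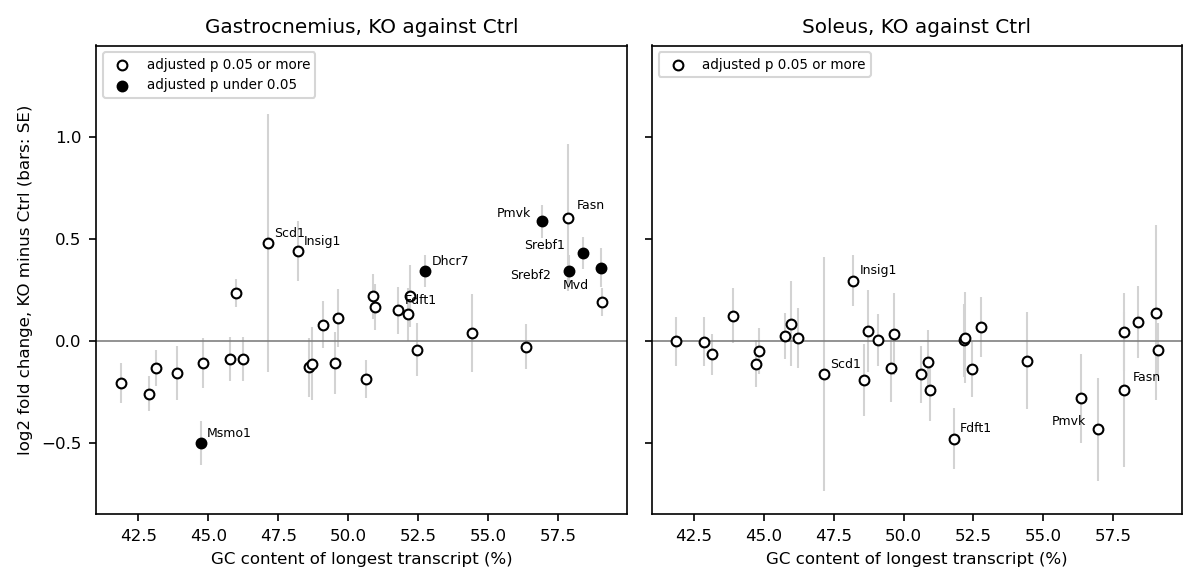
Log2 fold change of KO against Ctrl, with bars of 1 SE, for the 32 members tested, against the GC content of the gene's longest transcript in percent, in gastrocnemius (left) and soleus (right). In gastrocnemius the 5 filled points above 0 lie between 52.8 and 59.0% GC and the filled point below 0 at 44.7%, and in soleus no point is filled.

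Genes of neighbouring pathways were called in both directions in gastrocnemius, where 9.32% of all genes tested were called higher and 4.99% lower. Of 21 further enzymes of fatty acid and sterol synthesis tested, 2 rose and 3 fell. Me1, the cytosolic malic enzyme that supplies NADPH for fatty acid synthesis, was 92.6, 94.8 and 81.6 TPM in Ctrl and 56.4, 40.4 and 57.0 TPM in KO (log2 fold change -0.81, adjusted p = 0.0140). Hacd1, the dehydratase of very long chain elongation in muscle, fell by 0.42 on the log2 scale, and Cyb5r3, the cytochrome b5 reductase that feeds electrons to desaturases, rose by 0.54 (adjusted p = 0.0244 and 0.0118). Of 15 genes of SREBP processing and sterol sensing, none rose and 2 fell. They were Prkaa2, a catalytic subunit of AMP-activated kinase, at -0.52 (adjusted p = 0.00743), and Rnf139, an endoplasmic reticulum ubiquitin ligase, at -0.44 (adjusted p = 0.0170).

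Of 23 genes of triglyceride and phospholipid synthesis, 3 rose and 1 fell in gastrocnemius, beside the same shares of all genes. Gpat3, a glycerol-3-phosphate acyltransferase, was 4.13, 4.21 and 3.66 TPM in Ctrl and 6.82, 7.09 and 6.65 TPM in KO (log2 fold change 0.65, adjusted p = 0.00674). Fitm1 and Bscl2, which act in lipid droplet formation, were higher by 0.44 and 0.41 (adjusted p = 0.0324 and 0.0348), and Lpin1, a phosphatidate phosphatase, was at -0.38 (adjusted p = 0.0418). Of 14 genes of sterol uptake, transport and storage, Npc2 rose and Npc1 fell, at 0.34 and -0.50 (adjusted p = 0.0265 and 0.0484), although both proteins act in the same export of cholesterol from lysosomes. Of 12 genes of the isoprenoid branch none rose and Fnta, a farnesyltransferase subunit, fell, at -0.31 (adjusted p = 0.0245). The medians of these lists lay between -0.12 and 0.09, beside 0.03 for all genes tested.

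In soleus no member passed the test in either direction among the 32 tested, where 0.0165% of 12148 genes were called higher and 0.0576% lower. In limma, 2 of the 32 members had an unadjusted p under 0.05, as did 1102 of the 12148 genes. The median log2 fold change was -0.02 over the members and -0.02 over all genes. Over the members the log2 fold changes ran from -0.48 for Fdft1 to 0.30 for Insig1. None of the genes of the 5 neighbouring pathway lists was called either.

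The member with the smallest p in soleus was Fdft1 (chr14:63145150-63179578). It was 29.4, 29.4 and 28.8 TPM in Ctrl and 22.6, 23.7 and 16.4 TPM in KO, 0.716 times the Ctrl mean (log2 fold change -0.48, SE 0.15, adjusted p = 0.392 in limma). The Ctrl values were nearly the same and all KO values lay below them, with KO replicate 3 lowest. Without that library the log2 fold change was -0.32 (adjusted p = 0.369).

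The members called in gastrocnemius gave the following values in soleus. Srebf1 was 10.8, 15.4 and 12.6 TPM in Ctrl and 13.5, 16.8 and 11.4 TPM in KO (log2 fold change 0.09). Srebf2 was 10.9, 9.26 and 14.2 TPM in Ctrl and 13.1, 13.1 and 9.24 TPM in KO (0.04). The genotypes overlapped across most of their range for both genes. Pmvk was 9.83, 9.47 and 11.6 TPM in Ctrl and 9.53, 9.15 and 4.43 TPM in KO (-0.43, SE 0.25, adjusted p = 0.638). KO replicate 3 held the low Pmvk value by itself, and without it the log2 fold change was -0.12.

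The called sterol enzymes and Sc5d also overlapped between genotypes in soleus. Msmo1 was 4.15, 3.99 and 4.44 TPM in Ctrl and 3.38, 4.03 and 4.03 TPM in KO (log2 fold change -0.11, SE 0.11). Dhcr7 was 4.91, 5.40 and 7.18 TPM in Ctrl and 6.64, 6.03 and 5.65 TPM in KO (0.07, SE 0.15). Sc5d was 5.23, 5.82 and 6.27 TPM in Ctrl and 5.15, 5.79 and 6.35 TPM in KO (-0.00, SE 0.12). For each of these genes at least 1 KO library lay within the Ctrl range.

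Insig1 was the other member with an unadjusted p under 0.05 in soleus. It was 6.98, 6.45 and 8.37 TPM in Ctrl and 9.82, 8.92 and 8.62 TPM in KO (log2 fold change 0.30, SE 0.13, adjusted p = 0.548). Its KO values were all above its Ctrl values, as in gastrocnemius. All KO values of Hmgcs1 lay below its Ctrl values, with a log2 fold change of -0.07 (SE 0.0999). Insig2 was 40.5, 29.9 and 45.3 TPM in Ctrl and 51.8, 37.5 and 33.9 TPM in KO, with overlap. The summed level of the 5 regulators was 70.9 to 92.8 TPM in Ctrl and 72.4 to 99.7 TPM in KO.

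The test of the difference itself, the KO effect in soleus minus that in gastrocnemius over all 12 libraries, called no member. Over 12091 genes it called 0.157% higher and 0.116% lower. In limma 3 of the 32 members had an unadjusted p under 0.05, as did 2497 of the 12091 genes. For Pmvk the difference was -1.02 (SE 0.29, adjusted p = 0.119), for Fdft1 -0.63 (SE 0.20, adjusted p = 0.141) and for Msmo1 0.39 (SE 0.15, adjusted p = 0.190). The difference was negative for 22 of the 32 members and 6803 of the 12091 genes, with medians of -0.13 and -0.06. Spearman's rho between the difference and GC content was -0.74 over the members and -0.53 over 12059 genes. Without KO replicate 3 of soleus the difference of Pmvk was -0.71 (adjusted p = 0.0693). Over all alternatives its adjusted p ran from 0.0439, with libraries weighted by their quality in limma, the setting in which it was called, to 0.246. In the neighbouring pathways Prkaa2 was called, with a difference of 0.72 (adjusted p = 0.0434).

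Soleus and gastrocnemius differed more than the genotypes did. In Ctrl, 8 of 32 members were higher in soleus and 2 lower, where 30.4% of 12091 genes were called higher and 10.4% lower. In KO, 5 members were higher in soleus and 2 lower, where 26.4% of genes were called higher and 9.56% lower. The muscle comparisons share their libraries with the KO comparisons, and the muscles stand in separate tables, so muscle and table cannot be told apart. The median of all genes was itself shifted to soleus, by 0.19 on the log2 scale in Ctrl and 0.13 in KO, and the medians of the members were 0.20 and 0.08. With scaling by median ratios, which removes that shift, the calls over all genes in Ctrl were 2285 higher and 2288 lower in place of 3673 and 1263, and those of members 4 higher and 4 lower. In KO the same scaling gave 2044 and 2040 genes in place of 3189 and 1156, and 4 and 5 members.

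Mvd differed most between the muscles. In Ctrl it was 3.42, 3.98 and 4.36 TPM in gastrocnemius and 11.6, 31.8 and 22.4 TPM in soleus, a 5.60-fold difference in mean TPM (log2 fold change 2.12, SE 0.35, adjusted p = 0.000632). In KO it was 5.35, 5.32 and 5.19 TPM in gastrocnemius and 27.5, 32.5 and 12.5 TPM in soleus, a 4.57-fold difference (1.90, SE 0.35, adjusted p = 0.00144). All soleus values lay above all gastrocnemius values, while within soleus the libraries spread from 11.6 to 32.5 TPM. Over its whole length of 9822 bases Mvd is overlapped by Gm20388 on the opposite strand, whose mean levels were 6.06 and 4.11 TPM in gastrocnemius Ctrl and KO and 7.62 and 9.98 TPM in soleus Ctrl and KO. The libraries were directional, but the sources used here do not give how reads were assigned to strands, so its Mvd values are uncertain to that extent. Mvd was called in both genotypes under every alternative and with each library left out in turn.

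Among the other mevalonate enzymes Hmgcs1 was higher in soleus in both genotypes and Fdps lower. Hmgcs1 was 21.9, 21.8 and 23.2 TPM in soleus Ctrl and 20.9, 21.5 and 21.4 TPM in soleus KO, all above the gastrocnemius range of 14.8 to 17.9 TPM (log2 fold change 0.38 in Ctrl and 0.44 in KO, adjusted p = 0.00413 and 0.00172). Fdps was 16.5, 19.3 and 20.4 TPM in soleus Ctrl and 19.3, 15.2 and 15.4 TPM in soleus KO, below the 21.05 to 28.02 TPM of gastrocnemius (-0.46 and -0.44, adjusted p = 0.00910 and 0.0132). Relative to the shift of all genes, Hmgcs1 in Ctrl was not called with median-ratio or quantile scaling, and it was not called in KO after the GC and length correction. Fdps was called in Ctrl under every alternative, and it lost its call in KO without KO replicate 1 of gastrocnemius and after rescaling without mitochondrially encoded genes.

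Pmvk was called between the muscles in Ctrl only, at 0.66 (SE 0.20, adjusted p = 0.0242), and was at -0.36 in KO (adjusted p = 0.190). The test of that change is the difference given above, which did not pass. In KO it was called lower with median-ratio and quantile scaling, and without KO replicate 3 of soleus its log2 fold change was -0.05. The Ctrl call was lost without Ctrl replicate 1 or 3 of gastrocnemius, without Ctrl replicate 3 of soleus, and with no filter on low values, median-ratio or quantile scaling.

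Of the squalene and sterol enzymes, Fdft1 was lower in soleus in KO and Sc5d in Ctrl. Fdft1 was 30.8 to 41.0 TPM in gastrocnemius KO and 16.4 to 23.7 TPM in soleus KO, 0.560 times as high (log2 fold change -0.81, SE 0.14, adjusted p = 0.000877), and without KO replicate 3 of soleus it was at -0.66 (adjusted p = 0.00124). In Ctrl it was at -0.18 (adjusted p = 0.310). Its 3' end overlaps Ctsb, a lysosomal protease gene at 120 to 157 TPM on average per group, by 774 bases on the opposite strand. Sc5d was 7.94 to 8.88 TPM in gastrocnemius Ctrl and 5.23 to 6.27 TPM in soleus Ctrl (-0.48, SE 0.099, adjusted p = 0.00277), and in KO it was at -0.22 (adjusted p = 0.105). Msmo1 was higher in soleus in KO at 0.48 (adjusted p = 0.00431) and at 0.09 in Ctrl, and its KO call was lost after the GC and length correction.

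Of the 9 tested enzymes of fatty acid synthesis, elongation and desaturation, 3 were higher in soleus in Ctrl and 2 in KO, where 30.4% and 26.4% of all genes were. Elovl5 was 16.3, 14.7 and 16.5 TPM in soleus Ctrl and 14.8, 14.4 and 16.7 TPM in soleus KO, above the 8.58 to 11.4 TPM of gastrocnemius (log2 fold change 0.57 in Ctrl and 0.62 in KO, adjusted p = 0.00252 and 0.00154), and it was called in both genotypes under every alternative and with each library left out. Acaca was 3.69, 3.62 and 3.13 TPM in soleus Ctrl and 3.87, 3.64 and 3.00 TPM in soleus KO, all above gastrocnemius (0.51 and 0.43, adjusted p = 0.00479 and 0.0125). The Acaca call in KO was lost without KO replicate 3 of gastrocnemius or KO replicate 1 of soleus, with median-ratio or quantile scaling, and after the GC and length correction. Elovl1 was 18.2, 18.4 and 23.7 TPM in soleus Ctrl and 18.3, 19.3 and 16.7 TPM in soleus KO (0.40 and 0.31, adjusted p = 0.0348 and 0.102).

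Of the regulators, Scap and Srebf1 were higher in soleus in Ctrl. Scap was 10.9, 9.83 and 12.4 TPM in soleus Ctrl and 11.6, 11.2 and 9.25 TPM in soleus KO (log2 fold change 0.47 and 0.24, adjusted p = 0.00347 and 0.0926). Srebf1 was at 0.40 in Ctrl and 0.06 in KO (adjusted p = 0.0420 and 0.767). After the GC and length correction neither was called in Ctrl, nor was Elovl1. The Srebf1 call was kept in 3 of the 12 fits that left out a library, those without Ctrl replicate 1, KO replicate 2 or KO replicate 3 of soleus, and the Elovl1 call in 9 of 12, all but those without Ctrl replicate 1 or 2 of gastrocnemius or Ctrl replicate 3 of soleus. Median-ratio and quantile scaling and testing with no filter on low values ended the calls of both genes, and the replicate block ended that of Elovl1.

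**Figure D4:**
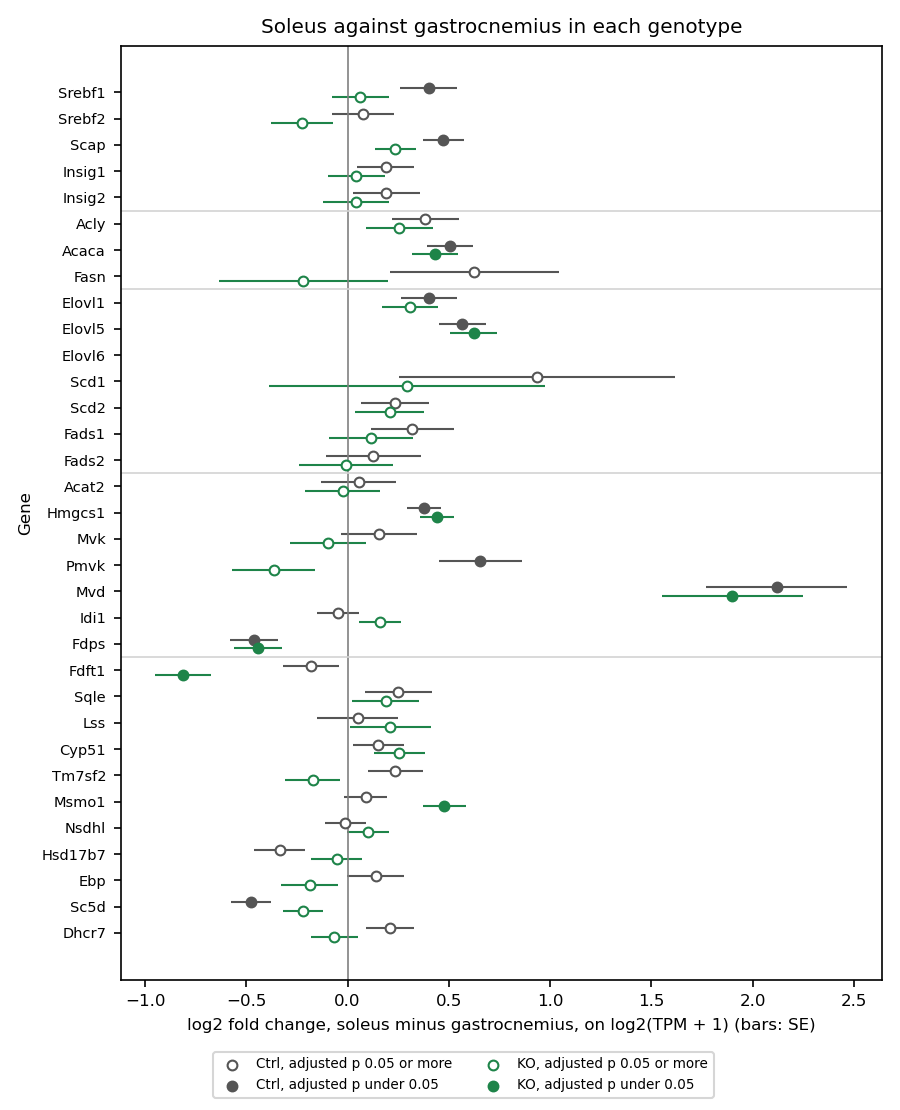
Log2 fold change of soleus against gastrocnemius on log2(TPM + 1) for each member tested (rows, by role), in Ctrl (grey) and KO (green), with bars of 1 SE and filled points for an adjusted p under 0.05 in limma. Mvd lies farthest to the right, at 2.12 in Ctrl and 1.90 in KO, and Fdft1 in KO farthest to the left at -0.81.

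Genes of neighbouring pathways were counted against the same 30.4% of all genes called higher in soleus in Ctrl and 26.4% in KO. Of 23 genes of triglyceride and phospholipid synthesis tested, 11 were higher in soleus and 1 lower in Ctrl, and 10 higher and 1 lower in KO, with medians of 0.42 and 0.26 beside 0.19 and 0.13 for all genes. Dgat2, the last enzyme of triglyceride synthesis, was 13.8, 18.5 and 11.1 TPM in gastrocnemius Ctrl and 80.3, 87.8 and 75.6 TPM in soleus Ctrl (adjusted p = 7.86e-06). In KO it was 12.7, 10.4 and 12.9 TPM in gastrocnemius and 54.8, 63.8 and 34.0 TPM in soleus (adjusted p = 4.68e-05). Plin5, a lipid droplet protein of oxidative tissue, was 4.41 times as high in soleus in Ctrl and 3.40 times in KO. Of the 21 further synthesis enzymes, 9 were higher and 2 lower in soleus in Ctrl and 6 higher and 3 lower in KO. Among them were Acss2, an acetyl-CoA synthetase, 2.16 times as high in soleus in Ctrl, and Me1, 0.307 times as high. SREBP processing and sterol sensing had 2 higher and 1 lower of 15 in Ctrl and 4 and 1 in KO, sterol uptake, transport and storage 2 and 1 of 14 in Ctrl and 3 and 2 in KO, and the isoprenoid branch 3 and 0 of 12 in Ctrl and 4 and 0 in KO.

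Members were also set beside markers of other cells of the muscle, in a tabulation made after the values had been seen. Scd1 was highest in the library with the highest summed adipocyte markers in 4 of 4 groups, and lowest in the library with the lowest sum in 4 of 4. Scd1 was 36.6, 9.58 and 27.5 TPM in soleus Ctrl and 9.34, 37.1 and 19.4 TPM in soleus KO, where Adipoq, a hormone made by adipocytes, was 21.2, 6.93 and 15.2 TPM and 5.94, 24.6 and 14.5 TPM. In gastrocnemius Adipoq was 2.96, 7.18 and 3.23 TPM in Ctrl and 21.8, 12.1 and 4.92 TPM in KO. KO replicate 1, with the high Scd1 and Fasn, was the gastrocnemius library with the highest Adipoq. For Fasn the highest library matched in 2 of 4 groups and the lowest in 3 of 4. Acly was 14.6, 10.6 and 14.4 TPM in soleus Ctrl and 14.4, 14.9 and 10.4 TPM in soleus KO. It was the other member whose highest library matched in all 4 groups, while its lowest matched in 1 of 4, and these 2 of 33 members (6.06%) stand beside 1.78% of 12091 genes.

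Summed over 10 genes, adipocyte markers were 302 to 360 TPM in gastrocnemius Ctrl, 412 to 633 TPM in gastrocnemius KO, 708 to 907 TPM in soleus Ctrl and 619 to 914 TPM in soleus KO. In the gastrocnemius KO comparison 1 of the 9 markers tested was called, Fabp4, a fatty acid binding protein of fat and capillaries, at 0.48 (adjusted p = 0.00966), and the median of the 9 was 0.77. Over all genes tested there, 9.32% were called higher and the median was 0.03. In the muscle comparison 4 of the 9 adipocyte markers were called higher in soleus in Ctrl and 2 of 9 in KO, where 30.4% and 26.4% of all genes were. No adipocyte marker was at 0 in any library. Beside the same shares of all genes, endothelial markers were called higher in soleus for 5 of 7 genes in both genotypes. Smooth muscle and pericyte markers were called higher for 6 of 6 in Ctrl and 2 of 6 in KO. Beside summed fibroblast and tendon markers, the highest and the lowest library each matched in 3 of 4 groups for Fasn and for Acly. For Scd1 they matched in 3 and 2 of 4. That sum was also highest in KO replicate 1 of gastrocnemius, at 3976 TPM, and its genes had a median of 0.71 in the gastrocnemius KO comparison. The part of adipocytes or fibroblasts in the levels of Scd1, Fasn and Acly was not tested. In whole muscle a change in the number of such cells cannot be told apart from a change in RNA per cell.

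Schwann cell markers were tabulated in the same way. In all 4 groups the library highest in 8 summed Schwann cell markers was also the highest for 6 of 33 members (18.2%), against 2.14% of 12091 genes. These were Elovl1, Scd2, Fads1, Acat2, Sqle and Cyp51. The lowest libraries matched in 2 of 4 groups for Scd2, Sqle and Cyp51, in 1 for Elovl1 and Fads1 and in 0 for Acat2. Schwann cell markers summed to 94.7 to 253 TPM in gastrocnemius Ctrl, 86.6 to 185 TPM in gastrocnemius KO, 162 to 196 TPM in soleus Ctrl and 129 to 191 TPM in soleus KO, and none was at 0 in any library. No Schwann cell marker was called in any of the 5 comparisons. For fibroblast and tendon markers the match held for 1 member, Hsd17b7 (3.03%), against 5.31% of genes. The libraries highest in these markers and in Schwann cell markers were the same in every group except gastrocnemius Ctrl. There Ctrl replicate 3 was highest in Schwann cell markers and Ctrl replicate 2 in fibroblast and tendon markers. Each of the 6 members named above matched the fibroblast and tendon markers in 3 of 4 groups, so only gastrocnemius Ctrl tells these tabulations apart. The part of these cells in the members' levels was not tested.

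**Figure D5:**
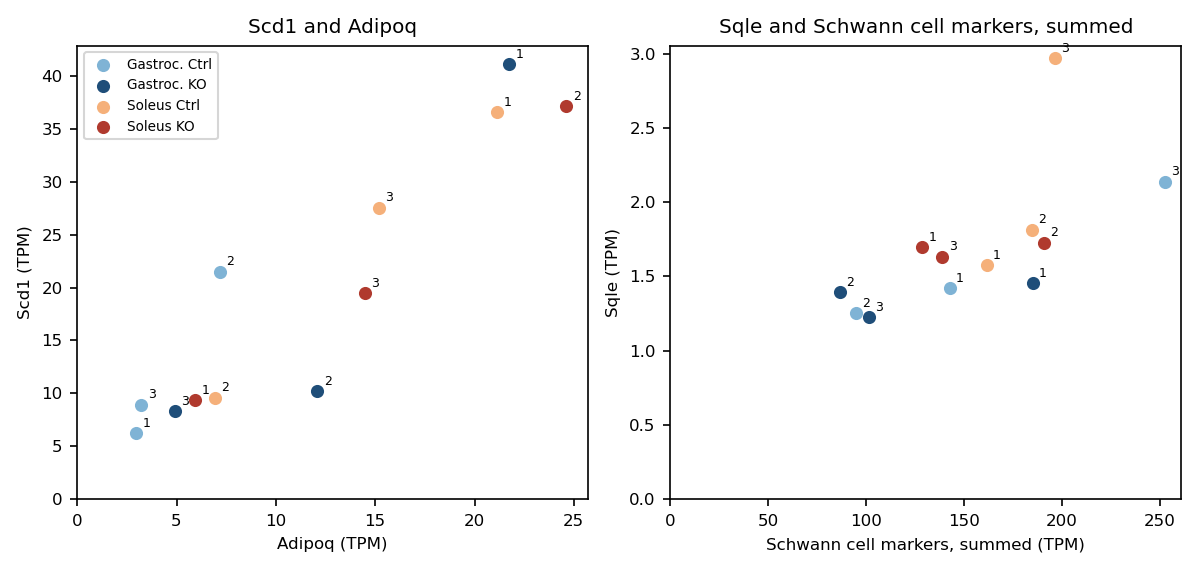
TPM of Scd1 against Adipoq (left) and of Sqle against the summed TPM of 8 Schwann cell markers (right), with a point for each of the 12 libraries, coloured by group and numbered by replicate, on linear axes from 0. The libraries of over 36 TPM of Scd1 are those of over 21 TPM of Adipoq, in 3 different groups.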

How the data were processed

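RNA of 12 muscle samples was measured by directional RNA sequencing, per the labels' protocols. The authors deposited TPM, in a table per muscle. Per the submitters' processing notes the genome was mm10; which aligner, counter and annotation they used is not given in the sources used here. Of 34866 gene IDs, 34652 matched GENCODE M21, which gave symbols, positions, lengths and GC content, and 214 did not.

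Values were taken as log2(TPM + 1). A gene entered a test if its mean over the libraries fitted reached 1 TPM. Tests were two-sided in limma 3.58.1 under R 4.3.3 with a mean-variance trend and Benjamini-Hochberg adjustment over all genes tested. KO was compared with Ctrl in the 6 libraries of each muscle. The difference between muscles and the muscle contrasts were fitted on 12 libraries with 4 group means. The code was tested on simulated data. Promoters were searched in Python 3.11.15.

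Members and lists were chosen with earlier results of these data known. Values in every library are given for Phf2, members called in any comparison and the most abundant member of each role. Up to 4 called genes of smallest p are named per neighbouring list. Alternatives were other pseudocounts (0.1, 0.5), filters, scalings, variance models, weights, a replicate block, a GC and length correction, and leaving out each library. A marker gene is not reported here and was left out of its list.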

Additional observations from a re-analysis of the deposited data

How the results depend on the processing

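No called member turned its direction under any alternative run. The members called in gastrocnemius KO were 6, and they were 2 with no filter on low values, 3 after rescaling without mitochondrially encoded genes, 2 after the GC and length correction, 1 with all 12 libraries in the fit (Msmo1) and 1 with the replicate block (Pmvk). Array weights gave 8, and leaving out a library gave 1 to 5. Over all genes the 1704 calls became 1113 with no filter, 1555 without mitochondrially encoded genes and 1270 after the GC and length correction. They became 722 with the replicate block and 524 with 12 libraries. They became 2367 with array weights, and 547 to 1596 with a library left out. In soleus no alternative called a member. Its 9 genes called became 0 with no filter, 5 at a mean of 5 TPM, 15 without mitochondrially encoded genes, 19 with array weights, 0 with the replicate block and 98 with 12 libraries, and 0 to 11 with a library left out. For the difference between muscles 1 member, Pmvk, was called with array weights, and none (0 to 0) with a library left out. Its 33 genes called became 14 at a pseudocount of 0.1, 21 with quantile normalization, 17 without mitochondrially encoded genes, 292 with array weights, 3 with the replicate block and 16 after the GC and length correction, and 1 to 308 with a library left out. Between muscles, the 10 members called in Ctrl were 7 to 11 with a library left out, and the 4936 genes 3928 to 5676. The 7 members called in KO became 11 with quantile normalization and 11 without mitochondrially encoded genes, 6 to 8 with a library left out, and the 4345 genes 3427 to 4434. With the replicate block 9 members were called in Ctrl and 7 in KO. The causes of these shifts were not tested. Same-numbered libraries had correlations of their deviations from -0.37 to 0.21, so the numbers were not taken to pair samples. Depth is unknown, which limits the members near 1 TPM most.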
